A study of Homo sapiens with 44 samples.

Results

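Transcripts of 9 genes of the interleukin-1 (IL-1) system were followed in human colon fibroblasts exposed to single cytokines. They are the agonist cytokines IL1A, IL1B, IL18 and IL33, the separate proinflammatory cytokine IL32, the soluble antagonists IL1RN and IL18BP, and the receptors IL1RL1 and IL13RA2, which act wholly or partly as decoys. The genes were chosen by name, as symbols of the deposited table, and are 9 of its 40663 symbols. They were chosen with earlier results of these data known. All 9 were found, and 6 passed a filter on low counts and were tested among 9513 genes, whereas IL1A, IL1RN and IL18 did not pass.

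The cells were the Ccd-18Co line, an established fibroblast line from human colon, and all libraries came from it. Attached cells were starved of serum for 72 h before a single recombinant cytokine was added for 24 h, still without serum. The study used this experiment to obtain the transcriptional response of a gut stromal cell to each cytokine by itself. The 44 libraries of bulk RNA-seq form 11 groups of 4: unstimulated cells, and cells given IL-1β at 0.1 ng/ml or TNF, IFNγ, IFNα, IL-13, IL-17A, OSM (oncostatin M), TGF-β1, IL-6 or IL-22 at 10 ng/ml. The dose of IL-1β is the one in the labels and the study's methods, but a legend in the study states a lower one, and the methods' list of doses leaves out IL-13, whose dose is from the labels. IL-1β was in either case given at a lower dose than the other cytokines, and every comparison shared the same 4 unstimulated libraries. Nothing in the labels states that replicates came from separate cultures, so p-values measure the spread between these libraries, which may be technical.

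Library totals ran from 742173 to 2213424 estimated counts with a median of 1480883, so low transcripts were measured coarsely. On the CPM scale, which sets each count against the size of its library, 3 counts were worth 1.39 to 3.85 depending on the library. All 9 fibroblast markers examined were present, with a summed level of 17240 to 52360 CPM per library, lowest on average with TNF and highest with IL-13. Endothelial markers summed to at most 2.65 CPM and leukocyte markers to at most 4.81 CPM, and CD3E, CD79A, TYROBP and AIF1 had no count in any library. Of the 6 epithelial markers, 3 exceeded 3 counts in some library, and the 6 summed to between 4.81 and 40.6 CPM. KRT18 and VIL1 had a count in 43 libraries each, with up to 31.3 and 26.6 CPM, whereas EPCAM and CDH1 reached at most 0.888 and 1.56 CPM. Their part in the results was not tested. In bulk RNA, more transcript per cell and more expressing cells cannot be told apart.

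IL-1α, IL-1β, IL-18 and IL-33 belong to a family of cytokines that lack a conventional secretion signal and act through receptors that share a cytoplasmic TIR domain and signal through MyD88 to NF-κB and MAP kinases. IL-1β and IL-18 are made as precursors that caspase-1 cleaves, whereas IL-1α and IL-33 can be held in the nucleus and act as alarmins when cells are damaged. The family is restrained by secreted antagonists and decoys: the IL-1 receptor antagonist (IL1RN) occupies the IL-1 receptor, IL-18-binding protein (IL18BP) sequesters IL-18, and soluble ST2, an alternative product of IL1RL1, sequesters IL-33. IL13RA2 is a high-affinity receptor for IL-13 that competes with the signalling receptor, and IL-32 is a cytokine outside the family that is absent from rodents. Stromal cells are a known source of IL-33 in the intestine.

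Values below are CPM scaled by the trimmed mean of M-values (TMM), given for replicates 1 to 4 in order. A change was called where edgeR's quasi-likelihood test gave a Benjamini-Hochberg adjusted p under 0.05 over the 9513 genes and the log2 fold change against unstimulated cells exceeded 1.5 in size. Of the 90 combinations of a member and a cytokine, 60 could be tested and 17 were called, 16 higher and 1 lower. Over all genes tested and all 10 cytokines, 0.988% of combinations were called higher and 0.954% lower.

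With IFNγ, 5 members were called higher (IL1B, IL33, IL32, IL18BP and IL1RL1), against 2.4% of all tested genes called higher and 1.14% called lower. For IL18BP, passing the filter was not independent of the IFNγ group, so its call adds nothing to this comparison of shares. The calls of IL1B, IL18BP and IL1RL1 with IFNγ were each lost in some omissions of 1 library. IL-1β raised 4 members, IL1B, IL33, IL32 and IL13RA2, against 1.47% of genes higher and 1.3% lower. TNF raised these 4 as well, against 1.85% of genes higher and 2.34% lower. IL-13 raised IL1RL1 and lowered IL33, against 0.273% higher and 1.2% lower. IL-17A raised IL13RA2, against 0.242% higher and 0.21% lower, and IFNα raised IL32, against 2.46% higher and 1.52% lower. No member was called with TGF-β1 (0.641% of genes higher, 1.06% lower) or OSM (0.536% higher, 0.767% lower). No member was called with IL-6 (0.0105% higher, 0% lower) or IL-22 (0% higher, 0% lower), with which 1 and 0 of all tested genes were called. At an unadjusted p under 0.05, edgeR gave 2 members with OSM, 1 with TGF-β1, 1 with IL-6 and 0 with IL-22, and DESeq2's Wald test called 1 member with OSM and 0 with the other 3. Of the 17 calls, 12 held in each of the 8 refits that left out 1 library of the comparison, and the other 5 are marked where they are described.

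**Figure D1:**
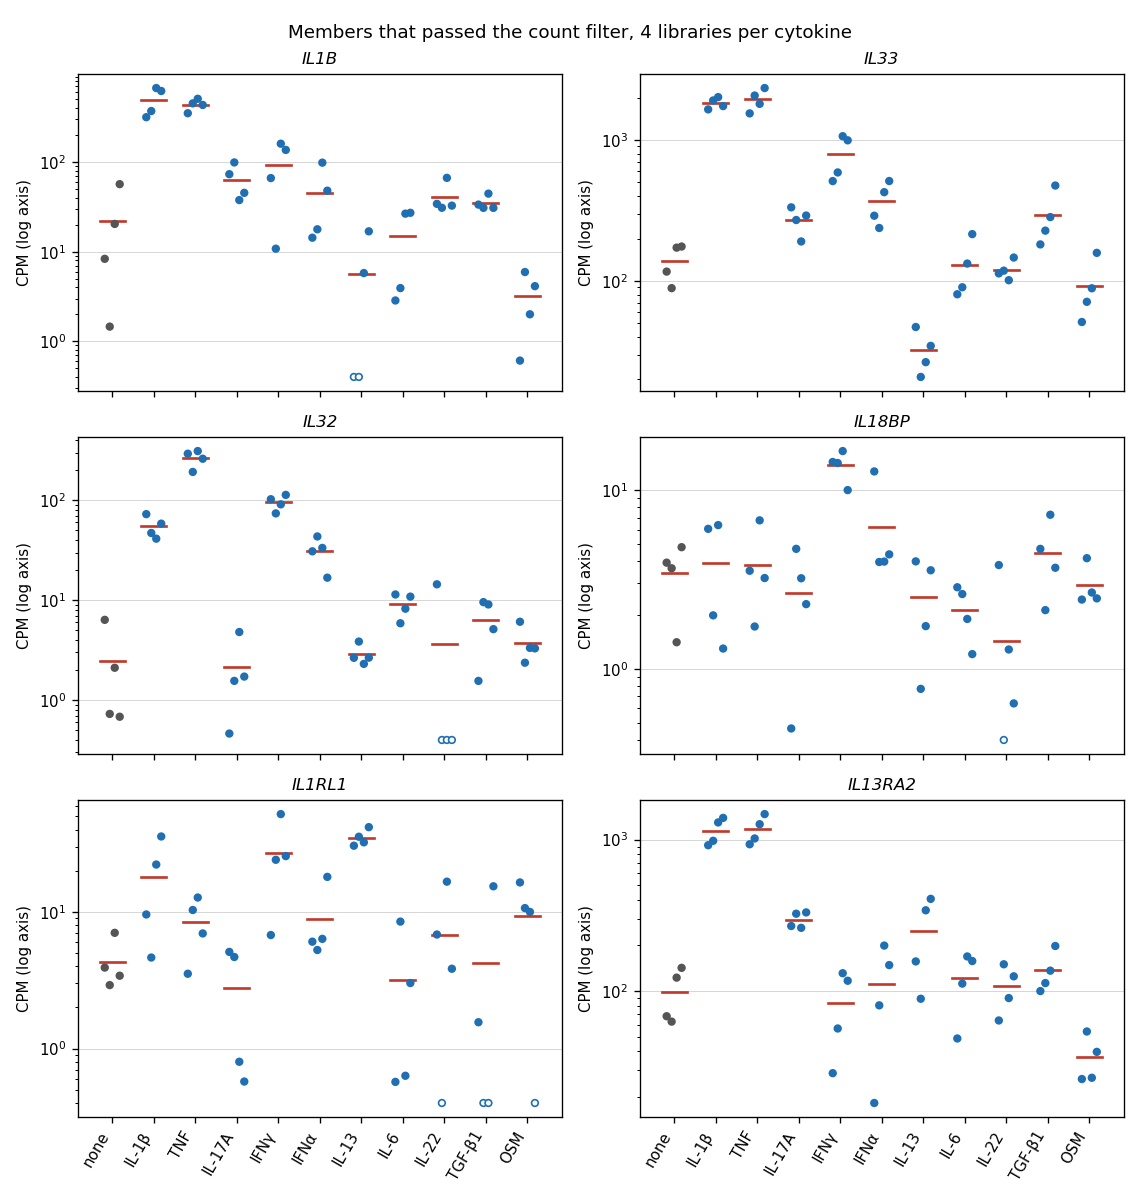
CPM on a log axis for the 6 members that passed the filter, by cytokine. Each point is 1 library, grey for unstimulated and blue for stimulated cells, red lines are group means, and open points at the lower edge are libraries with no count. The libraries with IL-1β or TNF stand clear of the unstimulated ones for IL1B, IL33, IL32 and IL13RA2, and the 4 libraries with IL-13 lie below them for IL33.

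IL1B, which encodes the IL-1β precursor and lies at chr2:112829751-112836816 on the minus strand (GRCh38, GENCODE), was highest in cells given IL-1β itself or TNF. Unstimulated libraries held 8.32, 1.46, 20.4 and 56.7 CPM. Libraries with IL-1β held 317, 371, 670 and 621 CPM, and those with TNF held 351, 452, 509 and 434 CPM. Both stimulated groups lay wholly above the unstimulated libraries, which themselves spread widely. The log2 fold change was 4.52 ± 0.66 (SE, n = 4) with IL-1β (adjusted p = 2.64e-06) and 4.34 ± 0.66 with TNF (adjusted p = 4.75e-06), or 22.8-fold and 20.1-fold by group means. Unstimulated replicate 4 raised the mean of its group, and without it the log2 fold changes were 5.62 and 5.44. The difference between these cytokines was 0.18 ± 0.55 on the log2 scale (95% interval -0.92 to 1.28, adjusted p = 0.938), and its sign turned to -0.02 without IL-1β replicate 3.

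IFNγ gave a weaker and more scattered rise in IL1B. The libraries held 66.3, 10.8, 160 and 137 CPM, so that replicate 2 lay within the unstimulated range. Its log2 fold change was 2.12 ± 0.64 (adjusted p = 0.0232). The change was 3.22 without unstimulated replicate 4. This call was lost without unstimulated replicate 1 or 2 or IFNγ replicate 3 or 4, with adjusted p between 0.00252 and 0.115 over the 8 omissions. It was also lost when the 8 libraries were fitted alone (adjusted p = 0.16).

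The lowest IL1B levels were in cells given OSM and IL-13. OSM libraries held 0.609, 5.93, 2.00 and 4.12 CPM, and IL-13 libraries held 0, 0, 5.77 and 16.9 CPM. Both groups overlapped the unstimulated libraries. In log2 terms the change was -2.74 ± 0.90 with OSM (adjusted p = 0.0767) and -2.01 ± 0.84 with IL-13 (adjusted p = 0.202), so neither passed the test. Both passed when all genes with any count were kept (2.71e-12 and 1.67e-07), and OSM also without unstimulated replicate 1 (0.0416) or 2 (0.0392) and by DESeq2's Wald test (0.0324). With all genes kept the log2 fold changes were -2.73 and -2.01, almost unmoved, so the lower adjusted p does not reflect a larger change. Without unstimulated replicate 4, the highest of its group, the change was -1.64 with OSM (adjusted p = 0.521) and -0.92 with IL-13 (adjusted p = 0.752). IL-17A libraries held 73.3, 99.1, 37.7 and 45.4 CPM, with a log2 fold change of 1.57 ± 0.64 and an adjusted p of 0.261. With all genes kept it was 3.08e-07, at an almost equal change of 1.58. In the order of group means from IL-1β down to OSM, only the step from TNF to IFNγ passed an adjusted p of 0.05 among the 10 steps between neighbours (2.22 ± 0.58, adjusted p = 0.00935). Over all genes and all 55 pairs of groups, 7.88% of contrasts passed that threshold.

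IL33, which encodes the alarmin IL-33 and lies at chr9:6215786-6257983 on the plus strand, was abundant in unstimulated cells and moved in both directions. Unstimulated libraries held 117, 88.9, 172 and 176 CPM. TNF libraries held 1546, 2069, 1806 and 2338 CPM, and IL-1β libraries held 1650, 1909, 2016 and 1741 CPM. Every library of these groups exceeded every unstimulated library by a wide margin. These gave log2 fold changes of 3.81 ± 0.33 with TNF (adjusted p = 7.31e-12) and 3.72 ± 0.33 with IL-1β (adjusted p = 1.63e-11), 14.0-fold and 13.2-fold by group means. These cytokines differed by 0.08 ± 0.29 on the log2 scale (95% interval from -0.50 to 0.67, adjusted p = 0.946), and the difference was -0.02 without TNF replicate 4.

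IFNγ raised IL33 less than IL-1β or TNF did, and IL-13 lowered it. IFNγ libraries held 511, 589, 1065 and 995 CPM, above all unstimulated libraries, a log2 fold change of 2.51 ± 0.32 (adjusted p = 5.99e-08). IFNγ was lower than IL-1β by 1.21 ± 0.30 on the log2 scale (adjusted p = 0.00395), and TNF exceeded IFNγ by 1.30 ± 0.30 (adjusted p = 0.00238). IL-13 libraries held 47.1, 20.8, 26.5 and 34.6 CPM, all below the lowest unstimulated library. The log2 fold change with IL-13 was -2.09 ± 0.34 (adjusted p = 3.75e-05), a 4.29-fold lower mean. It was the single decrease called among the members, and it stayed called in each of the 8 omissions.

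Smaller differences in IL33 lay below the fold threshold. IFNα libraries held 290, 238, 427 and 512 CPM, with a log2 fold change of 1.41 ± 0.31 and an adjusted p of 0.000916. TGF-β1 libraries held 182, 228, 284 and 476 CPM, with a log2 fold change of 1.08 ± 0.31 and an adjusted p of 0.0252. Both groups lay above the highest unstimulated library, TGF-β1 only narrowly. IL-17A libraries held 333, 271, 191 and 291 CPM, also above it, with a log2 fold change of 0.98 ± 0.30 and an adjusted p of 0.102. Among the 10 steps between neighbours in the order of means, 3 passed an adjusted p of 0.05: from IL-1β to IFNγ, from IFNγ to IFNα (1.11 ± 0.30, adjusted p = 0.0113) and from OSM to IL-13 (1.5 ± 0.34, adjusted p = 0.00265).

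IL32 encodes IL-32, a cytokine that induces other inflammatory cytokines, and lies at chr16:3065297-3082192 on the plus strand. It went from near the detection limit to a clear level with 4 cytokines. Unstimulated libraries held 6.37, 0.729, 2.11 and 0.683 CPM, from 13, 1, 3 and 1 counts. TNF libraries held 292, 192, 311 and 260 CPM, from at least 223 counts each. The log2 fold change with TNF was 6.54 ± 0.57 (adjusted p = 8.72e-12), the largest of the 60 tested, and the unstimulated mean behind it rested on 18 counts in all, 13 of them in replicate 1. Without that library the change was 7.71 with TNF.

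Both interferons and IL-1β also raised IL32. IFNγ libraries held 102, 73.9, 91.0 and 113 CPM, a log2 fold change of 5.07 ± 0.56 (adjusted p = 3.29e-09). IL-1β libraries held 72.7, 47.1, 41.3 and 58.4 CPM, a log2 fold change of 4.28 ± 0.56 (adjusted p = 2.74e-07). IFNα libraries held 30.9, 43.5, 33.4 and 16.8 CPM, a log2 fold change of 3.46 ± 0.57 (adjusted p = 1.56e-05). No library of these 3 groups overlapped the unstimulated ones, and without unstimulated replicate 1 the changes were 6.24, 5.45 and 4.63. TNF exceeded IFNγ by 1.47 ± 0.41 on the log2 scale (adjusted p = 0.0166), a call lost without IFNγ replicate 2 (1.36, adjusted p = 0.0545) or TNF replicate 3 (1.38, adjusted p = 0.0576).

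The steps from IFNγ to IL-1β (0.79 ± 0.42, adjusted p = 0.253) and from IL-1β to IFNα (0.82 ± 0.43, adjusted p = 0.222) did not pass, and the step from IFNα to IL-6 did (1.75 ± 0.49, adjusted p = 0.0128). IL-6 libraries held 11.4, 5.89, 8.23 and 10.9 CPM, with a log2 fold change of 1.71 ± 0.63 against unstimulated cells and an adjusted p of 1. IL-17A, which raised IL13RA2, left IL32 at 0.464, 1.56, 4.81 and 1.72 CPM, within or below the unstimulated range. In cells given IL-22, replicate 1 held 14.4 CPM and the other 3 libraries held no count.

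Because IL1B, IL33 and IL32 rose together with IL-1β, TNF and IFNγ, and IL18BP with IFNγ, the 250 bases upstream of a RefSeq start site (GRCh38.p14) are shown for each of the 4 genes. The RefSeq table matched 7 of the 9 members, IL18 and IL13RA2 not among them, and several members have more than 1 start. The start shown is the single annotated one for IL1B, the one nearest to the GENCODE canonical start for IL33, and the one that holds a match for IL32 and IL18BP, a choice made after the matches were seen. Letters were searched on both strands for 4 binding motifs, and capitals mark the matches. They were the κB consensus of NF-κB, the AP-1 site TGANTCA, the core of the interferon-stimulated response element (GAAA, any 2 bases and GAAA again) and the STAT site TTCNNNGAA.
IL32, chr16:3065153-3065402, plus strand: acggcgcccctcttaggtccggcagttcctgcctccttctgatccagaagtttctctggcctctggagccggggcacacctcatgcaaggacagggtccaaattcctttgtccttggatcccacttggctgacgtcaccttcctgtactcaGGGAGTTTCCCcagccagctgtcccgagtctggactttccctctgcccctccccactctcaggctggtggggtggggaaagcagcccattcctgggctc
IL18BP, chr11:71999367-71999616, plus strand: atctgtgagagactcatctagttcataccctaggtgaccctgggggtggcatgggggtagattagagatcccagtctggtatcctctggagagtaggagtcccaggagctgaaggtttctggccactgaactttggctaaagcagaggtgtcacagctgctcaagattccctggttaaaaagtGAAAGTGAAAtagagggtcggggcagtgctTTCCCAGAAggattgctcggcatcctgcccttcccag
IL1B, chr2:112836780-112837029, minus strand: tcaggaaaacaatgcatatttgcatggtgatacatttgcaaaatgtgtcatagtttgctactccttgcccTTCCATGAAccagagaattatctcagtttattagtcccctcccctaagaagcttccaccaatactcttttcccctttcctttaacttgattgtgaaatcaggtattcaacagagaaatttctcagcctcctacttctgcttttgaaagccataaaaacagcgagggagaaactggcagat
IL33, chr9:6215557-6215806, plus strand: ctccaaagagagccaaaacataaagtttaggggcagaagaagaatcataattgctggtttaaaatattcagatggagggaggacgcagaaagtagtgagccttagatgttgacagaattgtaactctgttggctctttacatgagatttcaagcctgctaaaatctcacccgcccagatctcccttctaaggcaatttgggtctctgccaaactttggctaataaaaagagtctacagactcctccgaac

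The IL32 window held 2 overlapping κB matches, on opposite strands, that begin 99 and 98 bases upstream of the start. The other IL32 start lay nearer to the GENCODE canonical start (144 against 237 bases), and its window held no match. Of the 35116 RefSeq windows of this length, 9.96% held a κB match. The IL18BP window held an interferon response element core 67 bases upstream and a STAT site 37 bases upstream, which 3.02% and 6.57% of all windows held. This start was 1 of 4 listed for IL18BP, and the other 3 windows held none of the motifs. The IL1B window held a STAT site 180 bases upstream, and neither IL33 window held a match. Among members not shown, windows of IL1A, IL1RN and IL1RL1 held AP-1 matches. Windows of IL1RN also held an interferon response element core, and IL1RN had no count in any library with IFNγ. IL1RL1 was called higher with IFNγ, and its windows held neither that core nor a STAT site. The shares are per window, whereas the IL32 and IL18BP windows were chosen for a match. A match in these letters is a description of the sequence, and binding was not measured in these libraries.

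**Figure D2:**
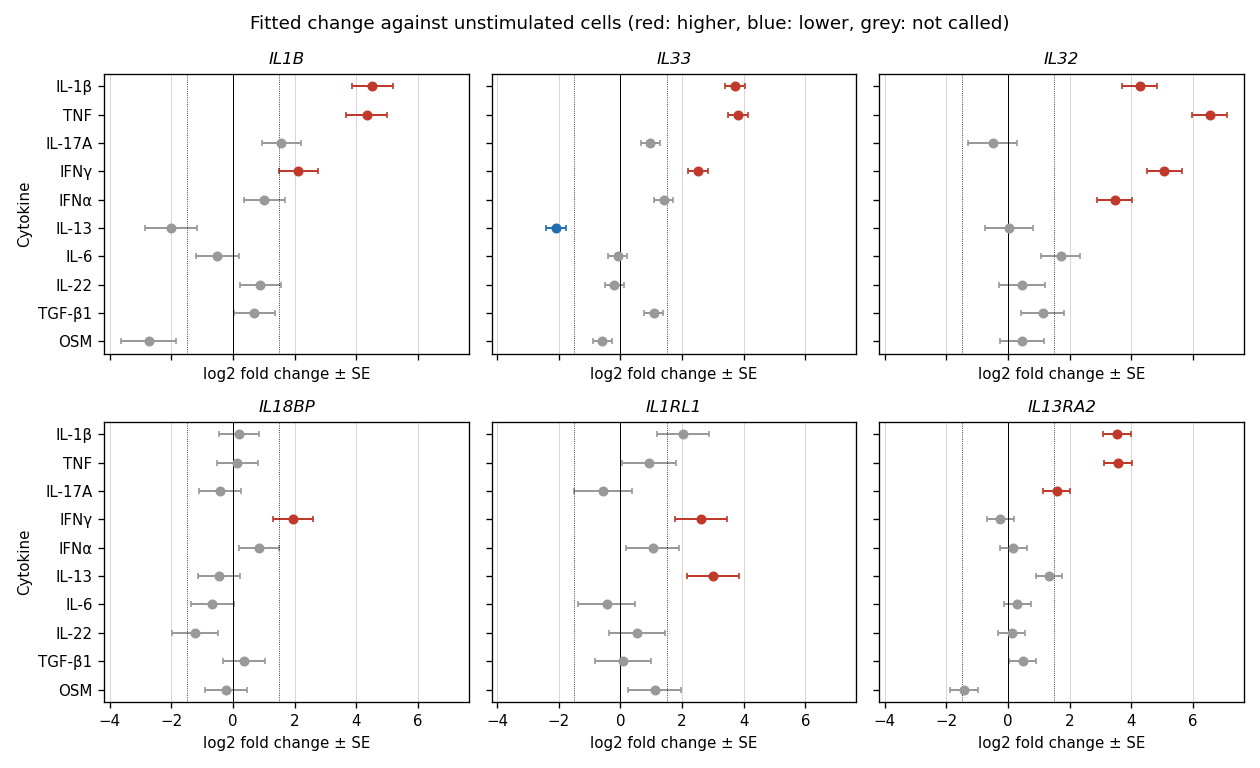
Log2 fold change against unstimulated cells for the 6 tested members and 10 cytokines, as points with SE bars from the fit of all 44 libraries. Red marks calls above 1.5, blue the call below -1.5 (dotted lines), and grey the rest. IL-1β, TNF and IFNγ hold 13 of the 17 calls, where 1.47%, 1.85% and 2.4% of all tested genes were called higher. Among them, IL18BP with IFNγ passed the filter through that group. IL33 with IL-13 is the single call to the left.

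IL18BP, which encodes the soluble inhibitor of IL-18 and lies at chr11:71998613-72007315 on the plus strand, was low in every group and highest with IFNγ. Unstimulated libraries held 3.92, 3.65, 1.41 and 4.78 CPM, from 2 to 8 counts. IFNγ libraries held 14.3, 14.1, 16.5 and 9.97 CPM, from 14 to 19 counts each. The groups did not overlap, and the log2 fold change was 1.96 ± 0.65 (adjusted p = 0.0412). The call was lost in 7 of 8 omissions, all but that of IFNγ replicate 2 (adjusted p from 0.0491 to 0.114 over the 8), and when the 8 libraries were fitted alone (adjusted p = 0.0612). It was also lost when all genes with any count were kept (adjusted p = 0.206), and DESeq2's Wald test gave no adjusted p. Only the IFNγ group held 14 counts or more in each library, so passing the filter was not independent of this group. Exons of IL18BP overlap those of NUMA1 on the opposite strand, and the strand setting of the counting is not given in the sources used here. NUMA1 stood at 4.67 CPM with IFNγ and 4.22 CPM without stimulation (log2 fold change 0.17 ± 0.81, adjusted p = 0.933).

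IFNα came next for IL18BP, with 12.7, 3.95, 3.97 and 4.36 CPM, so that replicate 1 alone lay above the unstimulated range. Its log2 fold change was 0.85 ± 0.65 (adjusted p = 0.508), and IFNγ exceeded IFNα by 1.11 ± 0.62 on the log2 scale (adjusted p = 0.318), which did not pass. None of the 10 steps between neighbours in the order of IL18BP means passed.

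The partner cytokine IL18, which encodes the IL-18 precursor and lies at chr11:112143253-112164096 on the minus strand, was close to absent at this depth. It had a count in 15 of 44 libraries, and the highest was 5 counts, in OSM replicate 4. The unstimulated, IL-22, IFNα and IFNγ groups had no count in any library, which allows up to 3 counts per library. IL18BP was thus measured in cells where IL18 was barely detected, and no ratio between them was formed.

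IL1RN, the gene of the IL-1 receptor antagonist at chr2:113099315-113134016 on the plus strand, was also too low to test. It had a count in 14 libraries. TNF libraries held 9, 0, 5 and 8 counts, TGF-β1 libraries 3, 0, 4 and 3, and unstimulated libraries 2, 0, 0 and 0. With TNF, 3 of 4 libraries lay above every unstimulated library and the other held none. A fit of all 23518 genes with any count gave an adjusted p of 0.248 with TNF. The antagonist transcript therefore remained at 9 counts or fewer in the groups where IL1B reached 497 counts or more per library.

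IL1A, the gene of the alarmin IL-1α at chr2:112773925-112784493 on the minus strand, had a count in 16 libraries and no count in any unstimulated library. TNF libraries held 7, 14, 3 and 0 counts, and IL-1β libraries held 1, 5, 5 and 2. All IL-1β libraries therefore had a count, whereas TNF replicate 4 had none. In the fit of all genes with any count, the adjusted p was 0.013 with TNF and 0.113 with IL-1β. That fit also gave far lower adjusted p for IL1B with OSM and IL-17A at almost equal folds, so the 0.013 is uncertain. A single IL-22 library held 12 counts and a single OSM library 6, beside others of those groups at 0 or 1. No fold is given against a group at 0.

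**Figure D3:**
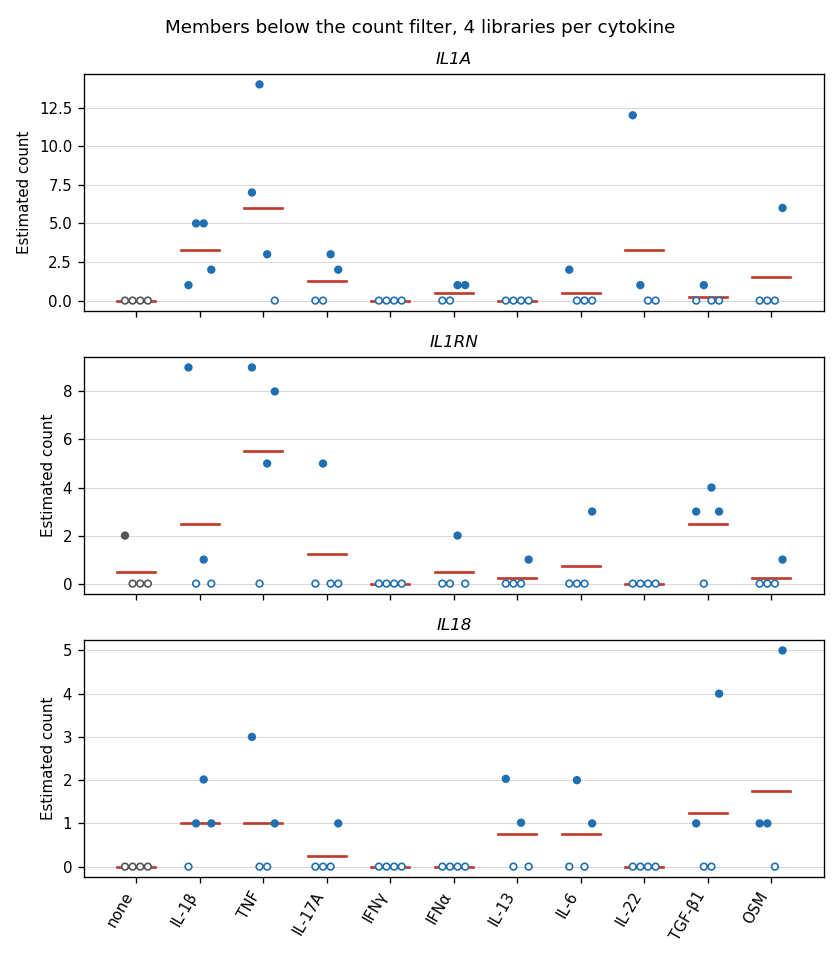
Estimated counts per library, on a linear axis from 0, of the 3 members below the filter. Filled points have a count, open points none, and red lines are group means. No library exceeded 14 counts for IL1A, 9 for IL1RN or 5 for IL18.

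IL1RL1 encodes ST2, the receptor for IL-33, as a membrane form and as a soluble decoy that lacks the membrane anchor. The counts are per gene and do not separate these forms. The gene lies at chr2:102311502-102352037 on the plus strand, and its annotated exons overlap those of IL18R1 on the same strand. IL18R1 stood at 4.08 CPM without stimulation, 3.80 CPM with IL-13, 22.2 CPM with IL-1β and 30.9 CPM with IFNγ. For IL1RL1, unstimulated libraries held 3.92, 2.92, 7.04 and 3.42 CPM, from 4 to 10 counts. IL-13 libraries held 30.5, 35.5, 32.3 and 41.7 CPM, from 46 to 56 counts each. These groups were far apart, and the log2 fold change was 3.00 ± 0.85 (adjusted p = 0.0331). The call was lost without unstimulated replicate 1, 2 or 4 or IL-13 replicate 2 or 4 (adjusted p from 0.0402 to 0.0992 over the 8 omissions).

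IFNγ also raised IL1RL1, with a wider spread. Its libraries held 6.78, 24.1, 52.0 and 25.6 CPM, and replicate 1 lay inside the unstimulated range. The fitted log2 change was 2.63 ± 0.85 (adjusted p = 0.036), lost without unstimulated replicate 1, 2 or 4 or IFNγ replicate 3 or 4 (adjusted p from 0.0209 to 0.164). IL-1β libraries held 9.59, 4.64, 22.2 and 35.7 CPM, with a log2 fold change of 2.04 ± 0.84 that did not pass (adjusted p = 0.166). It passed when all genes with any count were kept (adjusted p = 0.0142), at an almost equal change of 2.05. IL-13 and IFNγ differed by 0.37 ± 0.75 on the log2 scale (adjusted p = 0.799), and no step between neighbours in the order of IL1RL1 means passed. IL33 and its receptor gene thus had opposite called changes with IL-13 and called increases in both with IFNγ, although both IL1RL1 calls were lost in some omissions. Whether reads of IL18R1, which also rose with IFNγ, added to the IL1RL1 counts was not tested.

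IL13RA2, the decoy receptor gene for IL-13 at chrX:115003975-115019977 on the minus strand, was among the higher members at rest and rose with 3 cytokines. Unstimulated libraries held 68.1, 62.7, 122 and 142 CPM. TNF libraries held 931, 1017, 1263 and 1474 CPM, and IL-1β libraries held 918, 982, 1298 and 1391 CPM. Both groups lay wholly above the unstimulated libraries. These were log2 fold changes of 3.57 ± 0.46 with TNF (adjusted p = 1.6e-07) and 3.54 ± 0.46 with IL-1β (adjusted p = 2.29e-07), 11.9-fold and 11.6-fold by group means. TNF and IL-1β differed by 0.03 ± 0.41 on the log2 scale (95% interval from -0.80 to 0.86, adjusted p = 0.99), with a low of -0.10 without TNF replicate 4.

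IL-17A raised IL13RA2 to 269, 324, 261 and 330 CPM, clear of the unstimulated libraries, a log2 fold change of 1.59 ± 0.44 (adjusted p = 0.0478). The call was lost in 6 of 8 omissions, all but those of unstimulated replicates 3 and 4 (adjusted p from 0.0429 to 0.217). IL-1β exceeded IL-17A by 1.95 ± 0.43 on the log2 scale (adjusted p = 0.00294), the only step of the 10 between neighbours that passed. IL-13 itself, the ligand of this receptor, gave 157, 88.8, 341 and 406 CPM, of which replicate 2 lay within the unstimulated range. Its log2 fold change was 1.33 ± 0.44 (adjusted p = 0.0758). OSM libraries held 26.2, 54.0, 26.7 and 39.6 CPM, all below the unstimulated range, with a log2 fold change of -1.43 ± 0.47 that did not pass (adjusted p = 0.0746).

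Levels of different genes can be set side by side only per length, here as CPM per kilobase of the GENCODE canonical transcript. In unstimulated cells IL13RA2 stood at 73.9 ± 29.5 CPM per kilobase (SD, n = 4), IL33 at 51.5 ± 15.9 and IL1B at 14.4 ± 16.3. IL32, IL1RL1 and IL18BP stood at 3.02 ± 3.28, 2.16 ± 0.93 and 2.03 ± 0.85. With TNF the corresponding levels were 876 ± 184 for IL13RA2, 722 ± 127 for IL33, 323 ± 63.8 for IL32 and 290 ± 43.3 for IL1B. With IL-13, IL1RL1 at 17.5 ± 2.47 exceeded IL33 at 12.0 ± 4.25 by these means, the reverse of their order without stimulation, although single libraries of the 2 genes overlapped. IL13RA2 was at 185 ± 112 with IL-13, while IL13RA1, the signalling IL-13 receptor chain, was at 9.86 ± 4.58.

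By likeness over the 11 group means of log2 CPM, the closest tested genes to IL1B were RSPO3 (Pearson r = 0.978), the neutrophil chemokine gene CXCL8 (0.967) and the prostaglandin synthase gene PTGS2 (0.952). Those closest to IL33 were IL7R (0.971), CXCL8 again (0.965) and SLC16A6 (0.956). BID (0.946), UBE2E1 (0.943) and UBD (0.937) were closest to IL32. The tryptophan-degrading enzyme gene IDO1 (0.937), the guanylate-binding protein gene GBP4 (0.918) and PMAIP1 (0.912) were closest to IL18BP, and NXT2 (0.936), NUCB2 (0.931) and ARL1 (0.92) to IL13RA2. The genes given for IL1RL1 are ANXA2R-OT1 (0.828) and CALM3 (0.823). These 11 points share depth and 1 cell line, and r describes the shape of the levels over groups, not the size of a change. Group means ran from 12.4 to 19450 CPM for CXCL8, but only from 46.3 to 88.2 CPM for UBE2E1. Those of ANXA2R-OT1 ran from 2.77 to 6.63 CPM, near the limit of detection.

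Of 9 receptor chains of the family, 3 were measured well enough to test. Of their 30 combinations with a cytokine, 3 were called, all higher, against 0.988% of combinations over all tested genes and cytokines. IL1R1, the signalling receptor for IL-1, rose with OSM from 26.9 ± 9.46 to 85.0 ± 24.2 CPM (log2 fold change 1.66 ± 0.33, adjusted p = 0.00109), a call lost without OSM replicate 4 (1.47). IL1R1 stood at 52.9 ± 15.1 CPM with IL-1β, not called. With IFNγ it stood at 75.4 ± 29.8 CPM, above every unstimulated library, and its log2 fold change of 1.49 ± 0.34 (adjusted p = 0.00174) lay just under the fold threshold. It was called with IFNγ under DESeq2's size factors (1.54), DESeq2's Wald test (1.54) and the 8 libraries alone (1.51), and without unstimulated replicate 3 or 4 or IFNγ replicate 1 or 2 (1.57 to 1.73). IL18R1, the ligand-binding chain for IL-18, rose with IFNγ from 4.08 ± 1.42 to 30.9 ± 9.64 CPM (2.89 ± 0.70, adjusted p = 0.00357). It rose with IL-1β to 22.2 ± 12.1 CPM (2.41 ± 0.69, adjusted p = 0.0197), a call lost without unstimulated replicate 2 or 4 or IL-1β replicate 3 or 4 (adjusted p up to 0.0874). IL1RAP, the shared accessory chain, held at most 19 counts in a library, and the IL-1 decoy receptor gene IL1R2 and the IL-18 accessory chain gene IL18RAP held at most 5 and 4. None of the 6 other ligands and antagonists of the family, IL36A, IL36B, IL36G, IL36RN, IL37 and IL1F10, passed the filter.

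Of 13 genes for cytokine maturation and release, 8 were tested, and 7 of 80 combinations were called, 5 higher and 2 lower. Over all tested genes and cytokines, 0.988% of combinations were called higher and 0.954% lower. The 5 were with IFNγ and IFNα, with which 2.4% and 2.46% of all tested genes were called higher. CASP1, the gene of the protease that cleaves the IL-1β and IL-18 precursors, rose with IFNγ to 1336 CPM and with IFNα to 1303 CPM from 174 CPM. Its log2 fold changes were 2.94 ± 0.19 (adjusted p = 4.22e-16) and 2.90 ± 0.19 (adjusted p = 3.71e-16). With IL-1β or TNF, where IL1B was highest, CASP1 was not called. CARD16 is a shorter neighbour of CASP1 that resembles part of it, and its counts are uncertain for that reason. CARD16 rose with IFNγ (2.55 ± 0.40) and IFNα (1.80 ± 0.40) and fell with IL-13 (-1.54 ± 0.46) and OSM (-1.72 ± 0.47). GSDMD, the gene of the pore-forming protein gasdermin D, was called higher with IFNγ at 6.56 CPM (adjusted p = 0.0367). Unstimulated cells stood at 0.597 CPM, with at most 2 counts in a library. Its highest count, 18, was in the IFNγ group, so passing the filter may not be independent of that group. The GSDMD call was lost with all genes kept (adjusted p = 0.0762) and with the 8 libraries alone (0.0989). DESeq2's Wald test gave it no adjusted p. The calls of GSDMD with IFNγ and of CARD16 with IL-13 and OSM were each lost in at least 5 of 8 omissions, with adjusted p up to 0.15, 0.153 and 0.109.

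**Figure D4:**
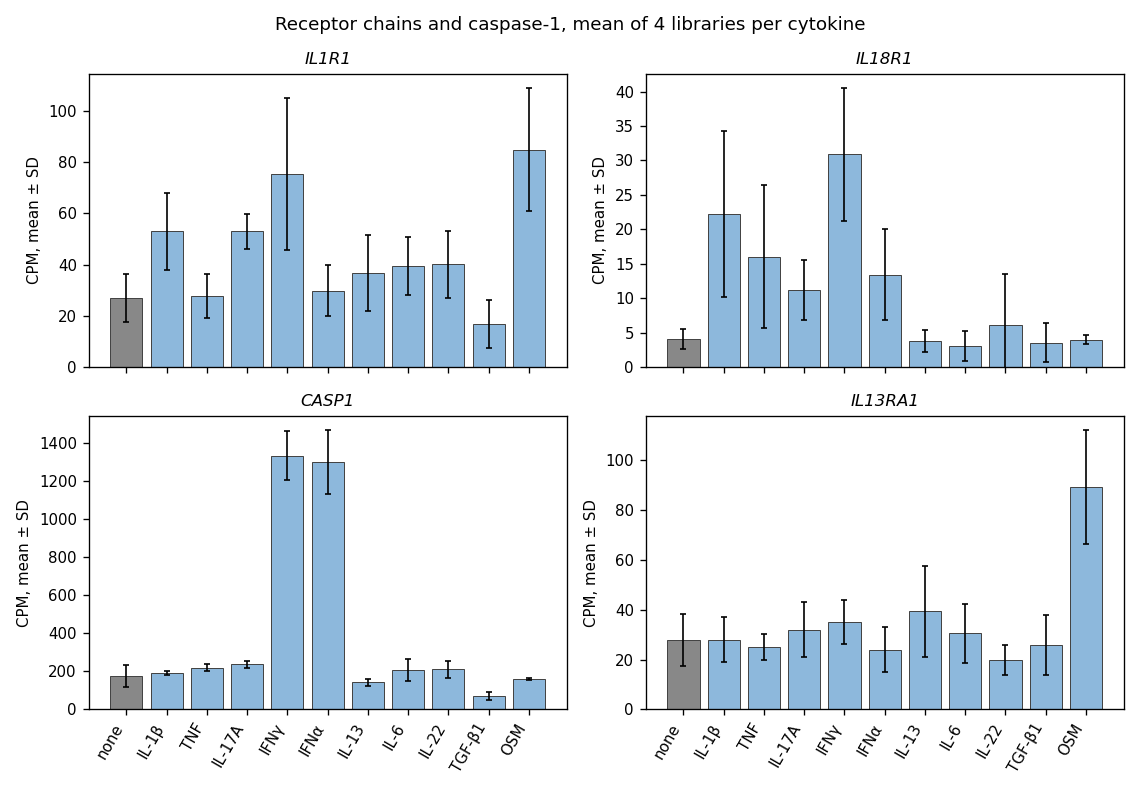
Mean CPM of 4 libraries per cytokine with SD bars, on axes that start at 0, for the receptor chains IL1R1, IL18R1 and IL13RA1 and for CASP1. CASP1 stands at 1336 and 1303 CPM with IFNγ and IFNα, and the highest bars of IL1R1 and IL13RA1 are those of OSM, at 85.0 and 89.2 CPM.

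Of 19 genes of receptor-proximal signalling, 12 were tested. Of their 120 combinations with a cytokine, 6 were called, all higher, against 0.988% of combinations over all tested genes and cytokines. They were the NF-κB inhibitor gene NFKBIA with TNF (3.09 ± 0.27, adjusted p = 7.31e-12) and IL-1β (2.61 ± 0.26, adjusted p = 5.41e-10), NFKBIZ with IL-1β (3.12 ± 0.37) and IL-17A (2.81 ± 0.37), and NFKB1 with TNF (1.81 ± 0.51) and IL-1β (1.73 ± 0.51). Both NFKB1 calls were lost without unstimulated replicate 3 or 4, and that with IL-1β also without IL-1β replicate 2 or 4 (adjusted p up to 0.0687 and 0.118). Of 11 genes of the IL-4 and IL-13 receptor system, 6 were tested. Of their 60 combinations with a cytokine, 6 were called, all higher, against the same 0.988%. IL13RA1 rose with OSM from 27.8 ± 10.3 to 89.2 ± 23.0 CPM (1.68 ± 0.36, adjusted p = 0.00243), a call lost without unstimulated replicate 4 (1.48). CHI3L1, which encodes a secreted ligand of IL13RA2, rose with OSM (4.09 ± 0.71, adjusted p = 0.000147), TNF (2.33 ± 0.70) and IFNγ (2.23 ± 0.71). STAT6 and TMEM219 rose with IFNα (1.62 ± 0.54 and 1.56 ± 0.40). The calls of CHI3L1 with TNF and IFNγ and of STAT6 and TMEM219 with IFNα were each lost in 3 or more of 8 omissions, with adjusted p up to 0.0919, 0.42 and 0.167 for the first 3 and a log2 fold change down to 1.36 for TMEM219.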

How the data were processed

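The deposited table holds estimated counts per gene symbol for 44 libraries, made by the authors with kallisto 0.48.0 (FastQC 0.11.9 and MultiQC 1.14 for quality; the processing notes name hg38). The transcript release and strand setting are not given in the sources used here, and 99.23% of symbols matched GENCODE v44. RNA was isolated with either of 2 kits, and which libraries had which is not given in the sources used here. Counts were rounded (5.77% of values were not whole), and each column was matched to its sample by library number. Genes were filtered with filterByExpr by group (23.4% of symbols kept) and scaled by TMM, and 1 edgeR 4.0.16 quasi-likelihood model with a term per group was fitted to all 44 libraries in R 4.3.3, with Benjamini-Hochberg adjustment within each contrast. The fold threshold of 1.5 on the log2 scale follows the study's methods. Log2 CPM for likeness used a prior count of 2. Coordinates are from GENCODE (GRCh38) and promoters from RefSeq (GRCh38.p14).

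The members, pathway lists and tests were chosen with earlier results of these data known. The genes named were all members, the listed pathway genes called with a cytokine, the receptor chains of the members, and the 3 tested genes most like each member, of which 1 is not reported here. Replicate libraries differed beyond counting noise in all 66 pairs (chi-square per degree of freedom 3.26 to 34.5), and none were identical. On counts simulated for TNF against unstimulated cells (9259 genes), 69 of 99 genes changed by 2 on the log2 scale and 85 of 95 changed by 3 were called. Also called were 3 unchanged genes. Counts were drawn around 1 mean per gene over all 44 libraries, with no change in the other groups. Genes of all levels were pooled, so these shares do not describe the low members. Alternatives were DESeq2 1.42.0 (size factors, and its Wald test), all genes with any count, the 8 libraries compared alone, a replicate block, other fold thresholds, and leaving out each library. The authors' lists of differential genes were not used.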

Additional observations from a re-analysis of the deposited data

Results flagged for a closer look

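In groups of 4 libraries, 13 of 87 sets of values (9 members and the totals) had a highest or lowest library set apart by Dixon's criterion at the 95% level. About 4.3 would be picked out by chance if values were normally distributed. Member sets were used only where a library exceeded 3 counts, and a set with 3 libraries at 0 is always picked out. The excess over 4.3 therefore cannot be read as a result. Among library totals, the 2096000 counts of IL-1β replicate 1 exceeded the 1621000 to 1660000 of its group, and the 1487000 of IL-6 replicate 2 lay under the 1612000 to 1628000 of its own. Several were single libraries with a few counts of a low gene: IL1A at 9.12 CPM in IL-22 replicate 1 and 4.95 CPM in OSM replicate 4, IL18 at 4.12 CPM in OSM replicate 4, and IL1RN at 4.54 CPM in IL-1β replicate 1 and 3.90 CPM in IL-17A replicate 2. IL32 stood at 14.4 CPM in IL-22 replicate 1, beside 3 libraries with no count, in the same library that was high for IL1A. IL1B stood at 66.7 CPM in IL-22 replicate 3 against 30.9 to 34.2 CPM in the others. IL18BP stood at 12.7 CPM in IFNα replicate 1 against 3.95 to 4.36 CPM, and at 4.15 CPM in OSM replicate 2 against 2.44 to 2.67 CPM. IL1RL1 stood at 18.1 CPM in IFNα replicate 4 against 5.27 to 6.36 CPM, and at 15.4 CPM in TGF-β1 replicate 4 against 0 to 1.56 CPM. None of these member values lay in a group in which that gene was called.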

How the results depend on the processing

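Of the 17 calls among the members, 12 held in all 8 omissions and all 6 alternatives, namely IL1B and IL13RA2 with IL-1β and TNF, and every call of IL33 and IL32. Leaving out 1 library gave 1 to 2 members called with IL-13, 0 to 1 with IL-17A, 1 to 2 with IFNα, 2 to 5 with IFNγ and 0 to 1 with OSM. It gave 4 to 6 called combinations for maturation genes and 3 to 7 for the IL-4 and IL-13 system, and differences between the strongest and next cytokine of -0.0215 to 0.33 for IL1B, -0.0177 to 0.18 for IL33, 1.36 to 1.59 for IL32 and -0.10 to 0.16 for IL13RA2. With a log2 threshold of 1 or none, 2 members were called with IFNα and 1 with TGF-β1, and with none, 16 combinations of maturation genes and 12 of signalling genes. DESeq2's Wald test called 3 members with IFNγ, 1 with OSM (IL1B, adjusted p = 0.0324) and 5 combinations of receptor chains. It gave IL1B with IFNγ an adjusted p of 0.0535 and IL18BP none. The 8 libraries alone gave 3 members with IFNγ, 4 combinations of maturation genes and 3 of the IL-4 and IL-13 system. Keeping all genes with any count called 21 combinations: it added IL1B with IL-17A (2 members called), OSM (1 member called) and IL-13 (adjusted p = 1.67e-07), IL1RL1 with IL-1β (0.0142) and IL1A with TNF (0.013), and ended IL18BP with IFNγ (0.206). The cause of these changes was not tested. DESeq2's size factors moved the median log2 fold change by at most 0.04. Correlations between the deviations of same-numbered libraries were weak (from -0.09 to 0.28), so the numbers were not used as pairs. In IL-6 all 4 libraries correlated best with their own number, and in IFNα 3 did, so weak sharing by number remains possible. A replicate block gave 2 members called with IL-17A (IL1B, adjusted p = 0.0487), ended the calls of CARD16 with IL-13 (0.0503) and STAT6 with IFNα (0.0543) and changed no other. With 3 counts worth up to 3.85 CPM, IL1A, IL1RN and IL18 are at the limit of detection, and fold changes of IL32 rest on 18 unstimulated counts.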

Other observations

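IL13RA2 was higher in both replicates 3 and 4 than in both replicates 1 and 2 in 8 of 11 groups, a pattern noticed in the values and then counted. As many groups were found for 0.336% of the 9513 genes tested, whose median was 2 groups. IL1B and IL33 showed it in 6 groups each, as many as 2.13% of genes, IL1RL1 in 3, IL32 in 1 and IL18BP in 0. The labels do not say what replicate numbers stand for, and the source of this pattern was not tested. The calls of IL13RA2 and IL33 held with the replicate number as a block.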
